A study of Gallus gallus with 10 samples.

Results

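The genes described here mark the neural crest and the ganglia and nerves that it forms in the heart. They were SOX10 and FOXD3, TH and DBH, CHGA, SNAP25 and SYT1, and GAP43 and STMN2, 9 genes out of 13009 that the array annotation names, chosen by symbol. They were read through all 22 probe sets whose annotated symbol is one of the 9, from 1 probe set each for FOXD3, TH and GAP43 to 7 for SNAP25. Whole hearts of chicken embryos (Gallus gallus) had been profiled on 10 single-colour arrays, 5 with pooled RNA of males (male pools A to E) and 5 with pooled RNA of females (female pools A to E). The tissue label is whole heart and the treatment label is harvest, so the labels of the pools differ by sex and letter alone. Strain, embryonic age and embryos per pool are not stated. The labels do not say that pools came from separate embryos, so the p-values rest on the spread among pools, part of which may be technical.

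The cardiac neural crest is a population of cells that leaves the dorsal neural tube and reaches the outflow tract of the heart, where it contributes to the division of the great vessels. It also gives rise to the parasympathetic ganglia of the heart and to the glia of its nerves, and crest cells of the trunk give the sympathetic neurons that later innervate the heart. SOX10 and FOXD3 are transcription factors of migrating crest cells and early glia. TH and DBH are enzymes of catecholamine synthesis, CHGA is a protein of secretory granules, SNAP25 and SYT1 work in the release of vesicles, and GAP43 and STMN2 mark growing axons. In RNA of whole hearts, fewer cells of a type and less RNA per cell cannot be told apart.

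All values are the deposited linear intensities, 1 per probe set and array, and the deposited table holds no detection calls. Array medians lay between 605 and 735, and means without the top and bottom 2% of values were 2500.5 to 2500.6. The muscle of the heart was plain in these pools: all 17 cardiomyocyte markers on the array passed the level filter described below, and MYL2, the ventricular myosin light chain, averaged 227742 in male and 230748 in female pools. HINTW, a gene of the female-specific W chromosome, averaged 127 in male and 122991 in female pools, as the sex labels have it.

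Background was gauged in 3 ways. Probe sets in the lowest 40% by mean log2 level over the 10 arrays, out of 38439 that are not controls, were called near background. Converted back from the log2 scale, that limit is an intensity of about 363. The means given here are of the intensities themselves, so an uneven probe set can average more and still be near background. Male birds carry no W chromosome, so W genes give a reading of probe sets without their own transcript. The 9 W genes that were called higher in females had male means from 118 to 416, with a median of 192. They had also passed the filter. A call needs a male level well below the female one, so W genes with high male readings tend to drop out. This range may therefore run low as a guide to background. On single male arrays these W genes read from 12.5 to 609. Genes of the lens, retina, brain, endocrine organs, egg and liver, listed as a guide, gave another reading. Of 29 such genes on the array, 11 passed the same filter, among them the brightest pair, the transferrin gene TF and the apolipoprotein gene APOA1. Leaving out the 5 liver genes TF, APOA1, ALB, FGB and TTR, 7 of 24 passed, and the brightest, OLIG2, a gene of the central nervous system, averaged 1060 in male and 1078 in female pools and lay at the 60.4th percentile. Among the 7 were the neural genes GFAP, MBP and OLIG2, which are a weak guide to background for a neural set. The lens gene CRYBA4 also passed, at percentile 58.3, with 1036 in male and 857 in female pools. Levels above the filter were thus also reached by lens genes, and brightness depends on the probes as well as on the RNA.

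By this rule 13 of the 22 probe sets were near background and 9, of 7 genes, passed the filter. DBH and GAP43 had no probe set above it. The 13 dim probe sets lay between the 0.166th and 39.3th percentile, the 9 others between the 43.6th and 75.6th. The nearest to the limit were a STMN2 probe set at the 39.3th percentile below it and FOXD3 at the 43.6th above it. Only 3 probe sets stood above the percentile of OLIG2, those of TH at 75.6 and the brighter one of each of STMN2 and SNAP25 at 70.5 and 61.8.

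**Figure D1:**
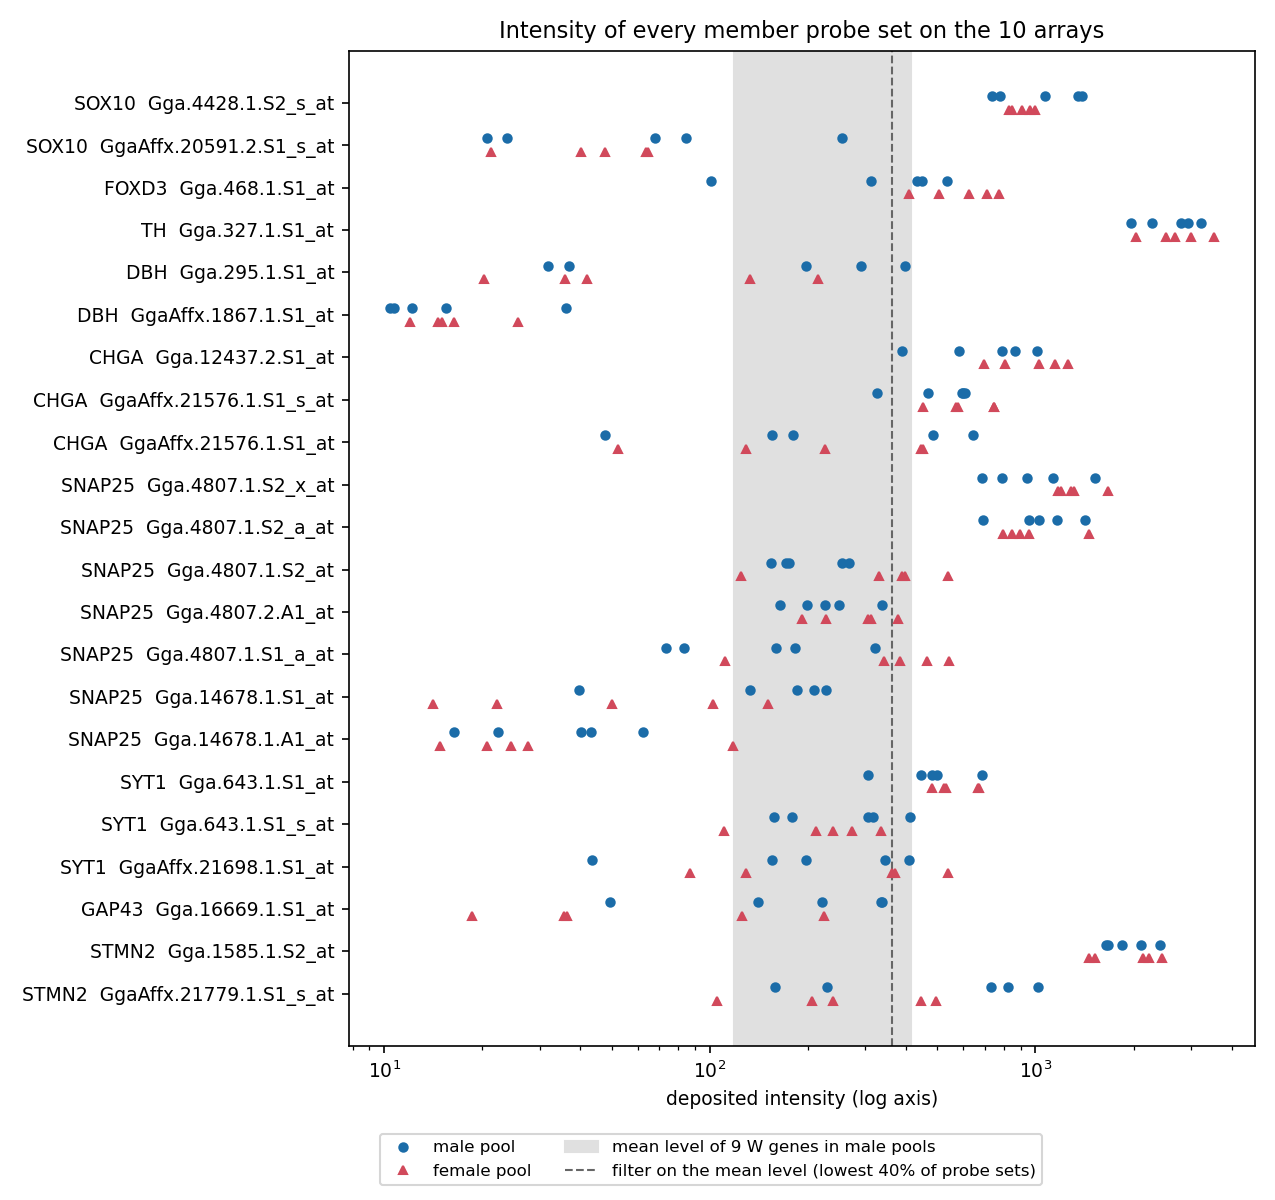
Deposited intensity (log axis) of each of the 22 probe sets on the 10 arrays, with blue circles for male pools above red triangles for female pools. The grey band spans the male means of the 9 W genes, 118 to 416, and the dashed line is the filter at about 363; TH and the brighter STMN2 probe set lie right of both on all arrays, DBH and GAP43 lie mostly inside or left of the band.

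Of the crest regulators, SOX10 was read by a pair of probe sets that gave different pictures. The brighter one had 1386, 1349, 734, 779 and 1069 in male pools A to E, against 994, 831, 963, 906 and 845 in female pools A to E. All 10 values stood above the range of the W genes' male means, the male pools spread more widely than the female pools, and the sexes overlapped. The other SOX10 probe set ran from 20.7 to 255 in male and from 21.3 to 64.4 in female pools, near background, and the correlation of the pair over the 10 arrays was 0.08. Both carry the suffix s that the array's maker gives to probe sets matching more than 1 transcript, so neither need read SOX10 alone. The same holds for each probe set named here with that suffix.

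FOXD3, a forkhead factor of the early crest on chromosome 8, had 101, 431, 313, 535 and 448 in male pools A to E and 710, 774, 623, 409 and 505 in female pools A to E. Male pool A lay below the range of the W genes' male means, and male pool C and female pool D lay inside it. On single male arrays the W genes reached 609, and only female pools A, B and C exceeded that. The FOXD3 means were 366 ± 168 in male and 604 ± 149 in female pools (SD, n = 5 each), and the highest male pools exceeded the lowest female pools.

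The catecholamine enzymes stood far apart on this platform. TH, tyrosine hydroxylase, the first and rate-limiting enzyme of the pathway, had 1968, 2942, 3222, 2790 and 2286 in male pools A to E, against 3007, 3523, 2681, 2038 and 2519 in female pools A to E. The lowest of the 10 values was 1968, and the highest was 1.79 times as large. DBH, the enzyme that turns dopamine into noradrenaline, had 397, 36.8, 31.8, 292 and 197 in male and 132, 20.2, 36.0, 215 and 41.8 in female pools with its brighter probe set. That is within or below the range of the W genes on every array, and the highest value was 19.6 times the lowest. Its second probe set did not exceed 36.0 in any male pool or 25.7 in any female pool. DDC, the enzyme between TH and DBH, was also near background with its brightest probe set, at 132 ± 58.5 in male and 73.6 ± 17.8 in female pools (SD, n = 5 each). SLC18A2, the vesicular monoamine transporter, averaged 6283 in male and 7268 in female pools, through a probe set with the suffix s. The DDC probe set carries that suffix too. The noradrenaline transporter gene SLC6A2 was near background, at 119 in male and 168 in female pools. So was GCH1, at 243 in male and 297 in female pools. SLC18A1, at 637 in male and 688 in female pools, and MAOA, at 5693 and 6148, passed the filter.

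CHGA, chromogranin A of dense-core granules, was read by 3 probe sets. The brightest had 791, 388, 583, 1009 and 865 in male pools A to E and 1022, 694, 808, 1260 and 1149 in female pools A to E. Male pool B was the lowest and female pool D the highest, and the sexes overlapped over most of their ranges. The second, with the suffix s, ran from 326 to 608 in male and from 452 to 747 in female pools. The dimmest ran from 47.7 to 641 in male and from 52.3 to 451 in female pools and was near background. Correlations between the 3 over the arrays were 0.27, 0.11 and 0.25, so they did not order the pools alike.

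SNAP25, the membrane SNARE of neurons and endocrine cells that joins vesicle and plasma membrane, had 7 probe sets, 5 of them near background. The brightest, with the suffix x, had 1526, 945, 1135, 687 and 791 in male pools A to E, against 1312, 1200, 1177, 1675 and 1281 in female pools A to E. The next, with the suffix a, had 1417, 1025, 1161, 955 and 691 in male pools and 1459, 848, 794, 954 and 895 in female pools. A probe set of the same design group with no such letter ran only from 154 to 268 in male and from 125 to 540 in female pools. The maker's suffix x marks probes that may bind other transcripts and a marks several transcripts of 1 gene, so the brighter pair need not read the same RNA as the dimmer one. Over the 21 pairs of SNAP25 probe sets the correlation across arrays ran from -0.26 to 0.81 with a median of 0.08. This is a description of probe sets annotated to the same gene.

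SYT1, the calcium sensor of synaptic vesicles, had 307, 497, 446, 482 and 683 in male pools A to E and 666, 524, 670, 531 and 480 in female pools A to E with its brightest probe set. Male pool A was the only one inside the range of the W genes' male means. Only male pool E and female pools A and C exceeded 609, the highest reading of these W genes on a single male array. The 2 other SYT1 probe sets were near background, with highest values of 412 in male and 540 in female pools.

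Of the axon growth genes, GAP43, a membrane protein of growth cones, had 141, 49.2, 337, 335 and 222 in male pools A to E, against 18.6, 35.7, 125, 224 and 36.4 in female pools A to E. All 10 values were within or below the range of the W genes, and the sexes overlapped. STMN2, a microtubule-binding stathmin of neurons also called SCG10, had 2420, 1651, 1847, 1666 and 2103 in male pools A to E and 2229, 2141, 1461, 1522 and 2439 in female pools A to E. It had the narrowest range of the 22 probe sets, the highest value being 1.67 times the lowest. Its second probe set, which carries the suffix s, ran from 158 to 1018 in male and from 105 to 495 in female pools and lay just below the filter.

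Dim probe sets spread more. Within a sex, the SD of log2(intensity + 16) was 0.29 to 0.68 for the 9 probe sets past the filter, with a median of 0.34, and 0.33 to 1.30 for the 13 dim ones, with a median of 0.89. With all probe sets cut by level into 10 classes from dim to bright, the median SD was 1.06 in class 2, 0.52 in class 5 and 0.19 in class 8. FOXD3, in class 5, had an SD of 0.68, and TH, in class 8, had 0.29.

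No difference between male and female pools was detected for any of the 9 genes. The comparison ran over the whole array in limma, as the mean of males less that of females in log2(intensity + 16), where the added 16 shrinks the changes of dim probe sets. Of the tested probe sets of the 9 genes, 0 of the 9 probe sets past the filter passed an adjusted p of 0.05 (limma, Benjamini-Hochberg over 23064 probe sets), and 0 had an unadjusted p under 0.05, where 1.76% of all tested probe sets were called and 9.10% had an unadjusted p under 0.05. Without a filter, 0 of the 22 passed in limma and 0 had an unadjusted p under 0.05, against 1.05% of all probe sets called. Both fits ignored the letters of the pools. Groups that did not overlap were seen for 0 of the 9, against 3.22% of tested probe sets. All 9 genes are placed on autosomes in the RefSeq table used for names.

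Over all 22 probe sets without a filter, 10 had ratios above 0 and the median ratio was -0.01, against 46.0% above 0 and a median of -0.02 over all 38439. Of the 9 past the filter, 2 had ratios above 0 and the median was -0.26, against 46.7% and -0.01 over all tested probe sets, and of the 13 dim ones 8 were above 0. FOXD3 had the largest difference among them at -0.84 ± 0.39 (SE, n = 5 per sex, limma adjusted p = 0.549, unadjusted 0.0501), with a 95% interval from -1.68 to 0.00. With 1 pool left out, that ratio ran from -1.02 without male pool D to -0.46 without male pool A, the lowest. For CHGA the values were -0.47 ± 0.26 with the brightest probe set (limma adjusted p = 0.636) and -0.26 ± 0.25 with the second. For the brightest they ran from -0.61 without male pool D to -0.27 without male pool B. For the second they ran from -0.36 without female pool D to -0.10 without male pool A. For SNAP25 they were -0.43 ± 0.20 with the brightest probe set (limma adjusted p = 0.557) and 0.08 ± 0.21 with the next, which point in opposite directions. The brightest SNAP25 probe set ran from -0.58 without male pool A to -0.30 without male pool D. SYT1 was at -0.27 ± 0.26, and ran from -0.41 without male pool E to -0.13 without male pool A. SOX10 was at 0.18 ± 0.20, and ran from 0.072 without male pool A to 0.30 without male pool C.

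The intervals were narrow for the 2 steadiest genes. TH had a ratio of -0.06 ± 0.16 with an interval from -0.39 to 0.27, a male over female fold between 0.762 and 1.21. STMN2 had a ratio of 0.00 ± 0.16, with a fold between 0.786 and 1.27. For 7 of the 9 probe sets past the filter the interval lay between -1 and 1, a 2-fold change either way, the exceptions being FOXD3 and the brightest CHGA probe set. Below the filter this held for 1 of 13, where intervals reached from -2.23 to 2.67. GAP43 had the largest estimate there, 1.31 ± 0.64 (limma without a filter, adjusted p = 0.675), and a difference was not detectable at this signal. Another SNAP25 probe set had 1.19 ± 0.59 and a further one -1.11 ± 0.53, again in opposite directions.

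**Figure D2:**
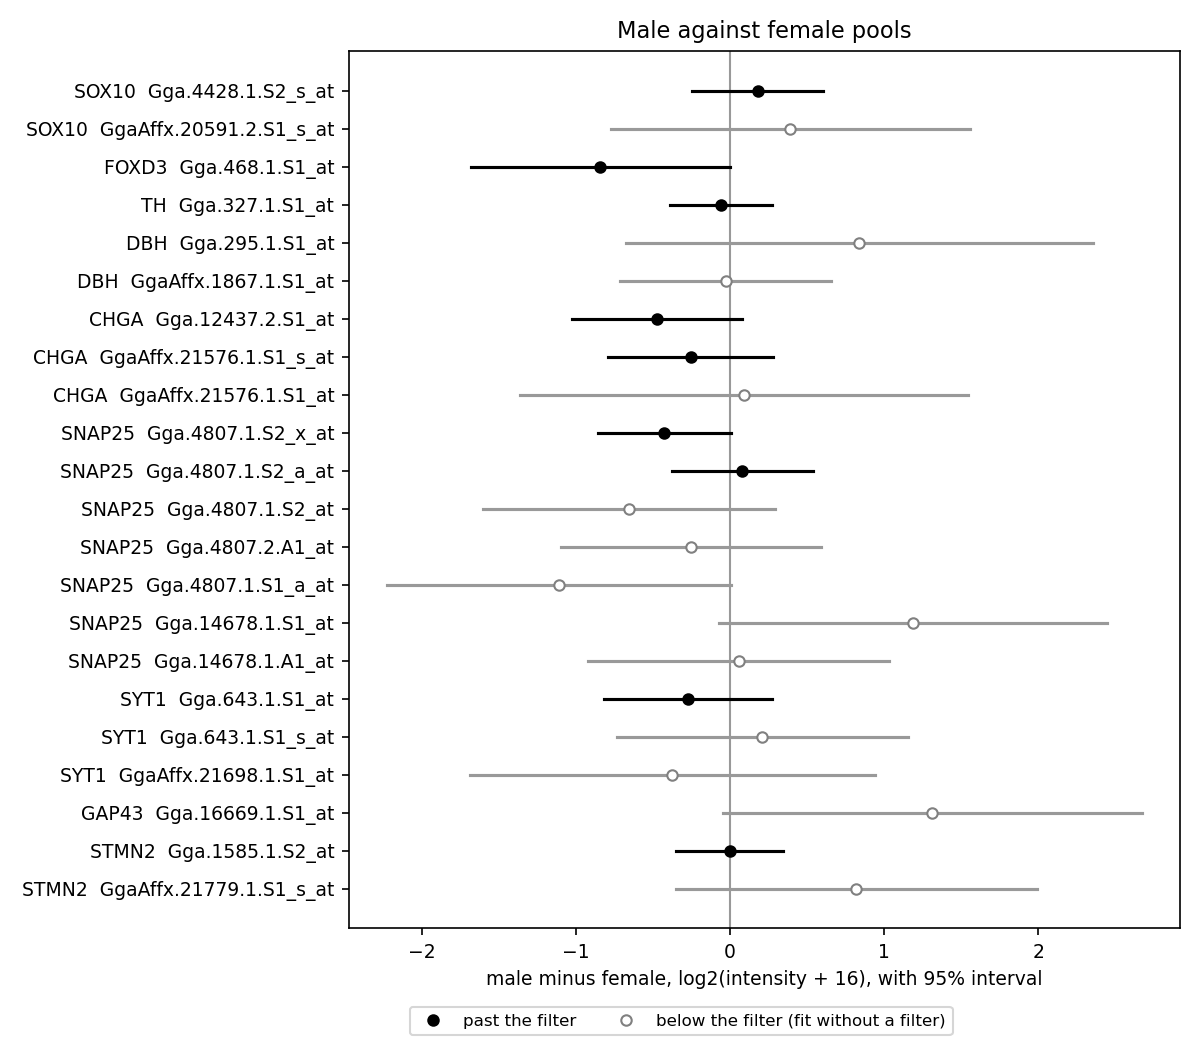
Male minus female difference on the log2(intensity + 16) scale with its 95% interval for each of the 22 probe sets, filled for the 9 past the filter and open for the 13 below it. Every interval includes 0; those of TH and the brighter STMN2 probe set are the narrowest and that of GAP43 reaches 2.67.

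Co-variation was examined for the 7 genes past the filter, each read through its brightest probe set, as 21 pairs over the 10 arrays. No pair passed after adjustment over the 21 (permutation test with 100000 resamples, two-sided, lowest adjusted p = 0.214 for Pearson's r and 0.868 for Spearman's rho), and 2 had an unadjusted p under 0.05. The r values ran from -0.50 to 0.81 with a median of -0.05, and 10 of 21 were above 0. A size of at least 0.6 was reached by 2 pairs, 9.52% of them, against 8.21% of all pairs of the 10285 genes past the filter, whose median r was 0.00. No common rise and fall of the 7 genes was detectable over these pools.

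The closest pair was FOXD3 and SYT1, with r = 0.81 (permutation p = 0.0102, adjusted p = 0.214) and rho = 0.53 (permutation p = 0.124, adjusted p = 0.868) over 10 arrays. With each sex centred on its own mean r was 0.76. That centred r fell to 0.36 without male pool A and female pool D, the farthest in centred FOXD3. As measured, r was 0.63 without male pool A and female pool B, the arrays farthest from the median of FOXD3. FOXD3 and TH had r = 0.62 (permutation p = 0.0474, adjusted p = 0.498) and rho = 0.53 (permutation p = 0.123, adjusted p = 0.868). Without male pool A and female pool B their r as measured was 0.05, so that relation rested on those pools. SNAP25 and SYT1, partners in vesicle release, had r = -0.27 (permutation p = 0.447, adjusted p = 0.749) and rho = -0.13 (permutation p = 0.733, adjusted p = 0.917). With each sex centred its r was -0.70 (exact permutation within sexes, p = 0.0735, adjusted p = 0.344).

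**Figure D3:**
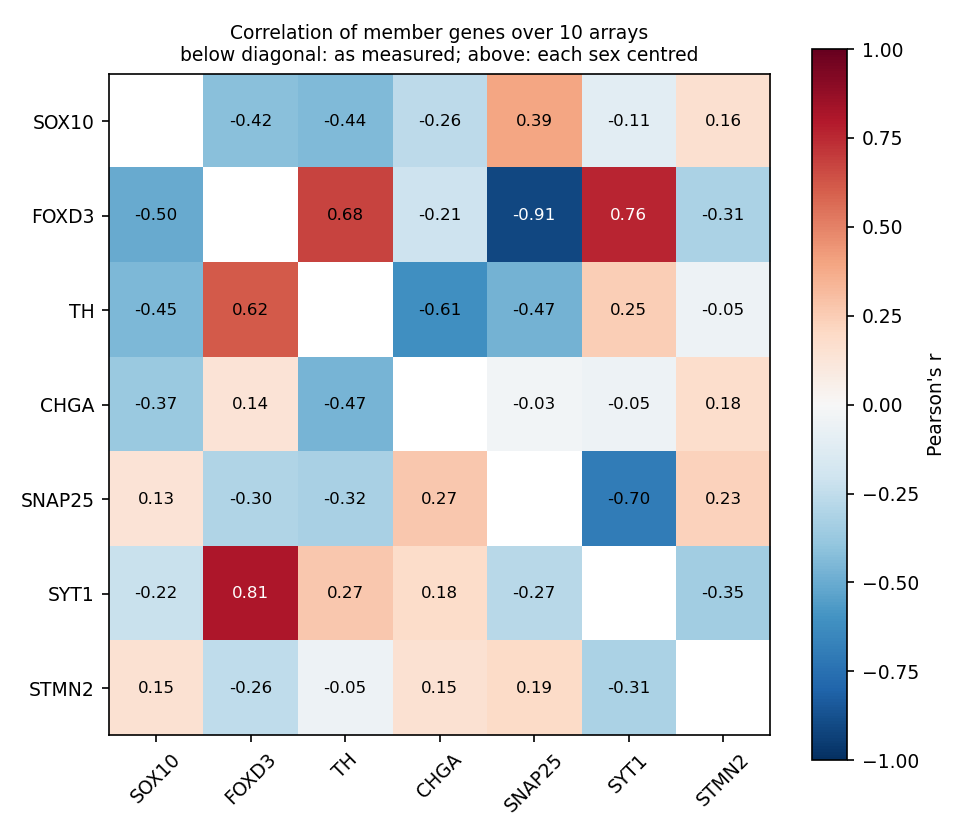
Pearson's r between the 7 genes past the filter over the 10 arrays, below the diagonal as measured and above it with each sex centred on its own mean. The highest value as measured is 0.81 for FOXD3 and SYT1 and the lowest with sexes centred is -0.91 for FOXD3 and SNAP25.

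Within the sexes, 1 pair passed. FOXD3 and SNAP25 had r = -0.30 as measured (permutation p = 0.405, adjusted p = 0.749) and -0.91 with each sex centred (exact permutation within sexes, p = 0.00111, adjusted p = 0.0233 over the 21 pairs), at -0.93 over the male and -0.79 over the female pools. That adjustment covered the centred test alone and not the Pearson and Spearman tests of the same 21 pairs as measured, where no pair passed. The centred rank correlation was -0.88. Of all pairs of genes past the filter, 0.133% had a centred r of at least 0.9 in size. Without male pool A the centred r was -0.84 (exact permutation p = 0.00590), and without male pool A and female pool D it was -0.75 (exact permutation p = 0.0503). It was -0.48 (exact permutation p = 0.222) with the next SNAP25 probe set in place of the brightest. These alternatives were chosen after seeing the data. Centred on sex, the 3′ minus 5′ signal of the GAPDH controls, a guide to RNA integrity, had r = 0.73 with SNAP25 and -0.47 with FOXD3 over the 10 arrays. As measured, its r with SNAP25 was 0.30 (permutation p = 0.401, adjusted p = 0.765). With FOXD3 it was -0.59 (permutation p = 0.0452, adjusted p = 0.475). Both were adjusted over the 21 relations described below. The part of this signal in the relation of FOXD3 and SNAP25 was not tested.

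**Figure D4:**
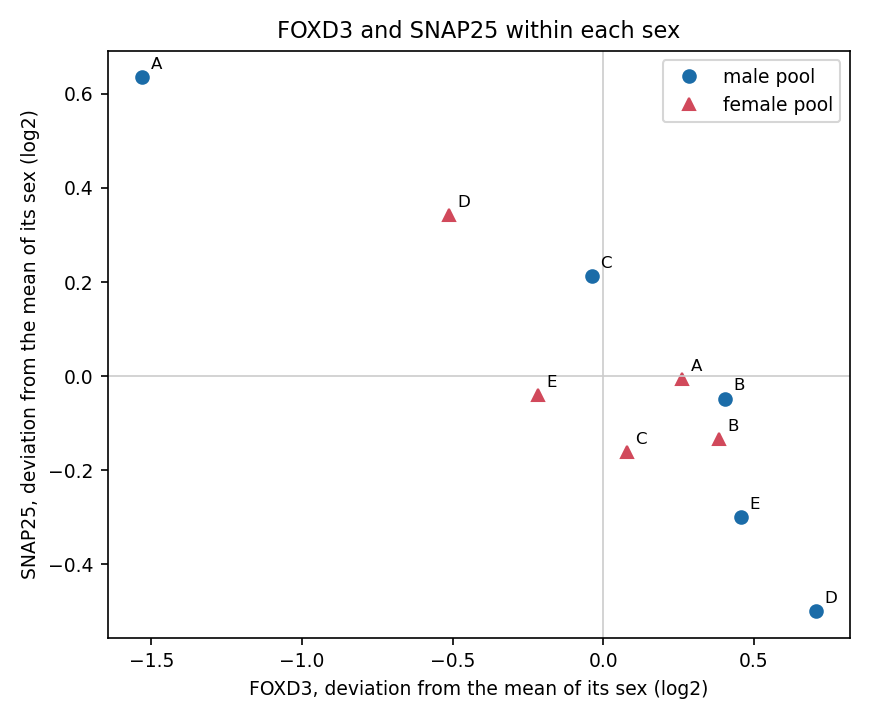
Deviation of FOXD3 (x axis) and of the brightest SNAP25 probe set (y axis) from the mean of their sex on the log2(intensity + 16) scale, with blue circles for male and red triangles for female pools and the pool's letter beside each. Male pool A lies far to the left, at -1.53 for FOXD3 and 0.63 for SNAP25.

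Among the array measures, STMN2 had its closest relation with the array median, which did not pass after adjustment. Its r with the array median was -0.83 over 10 arrays (permutation p = 0.00253, adjusted p = 0.0531 over 21 relations of the 7 genes with 3 array measures), and rho was -0.75 (permutation p = 0.0175, adjusted p = 0.367). Without the arrays with the most distant medians r was -0.71, with each sex centred it was -0.87 and after quantile normalization it was -0.86. A correlation below -0.8 with the array median was seen for 0.719% of all genes past the filter, and what links the measures was not tested.

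The genes with the most similar pattern to each member over the 10 arrays are given as a description. Of these 21 genes, 0 belonged to any gene list used here. The lists hold few of the 10285 genes past the filter, and hold SV2B but not SV2C, so this count says little. For SOX10 they were CNN2, SV2C and CYBA, with r of 0.91, 0.90 and 0.87. For FOXD3 they were RHBDD2, EEFSEC and PIGU at 0.92, 0.89 and 0.89, and for TH they were CCDC126, SHC4 and APCDD1 at 0.92, 0.91 and 0.88. CHGA was followed most closely by PCDH18, HDGF and MPC2 at 0.93, 0.93 and 0.92, and SNAP25 by GCLM, SOCS2 and POLR2B at 0.94, 0.94 and 0.94. SYT1 came with TWISTNB, ERG and DLAT at 0.92, 0.90 and 0.88, and STMN2 with ADAM10, FBXO33 and CHMP3 at 0.91, 0.91 and 0.90. Leaving out the pair of arrays farthest from the median of the member lowered these to values between 0.26 and 0.88. Between 0.107% and 0.739% of genes had r above 0.8 with a given member.

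Other genes of the same pathways were read from 7 lists of 116 genes, of which 93 were on the array and 66 passed the filter, each gene through its brightest probe set. Some of these probe sets carry the suffix s, among them those of SLC18A2, SNAP23, SNAP29, STMN1, STMN4, EDNRB, SCG2 and MAP2. That of MAPT carries the suffix x. Such probe sets need not read 1 gene alone. Of the 66, limma called 0 over all genes tested and 4 had an unadjusted p under 0.05, where 2.23% of all genes past the filter were called and 10.03% had an unadjusted p under 0.05. Ratios were above 0 for 29 of the 66 and for 43.8% of all genes past the filter.

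Autonomic neuron identity had 11 of 13 genes past the filter, with a median ratio of -0.09. ISL1, a LIM factor of sympathetic and cardiac progenitors placed on Z, averaged 373 ± 200 in male and 678 ± 174 in female pools, a ratio of -0.99 ± 0.39 (limma adjusted p = 0.394). CHRNB4, a subunit of the ganglionic nicotinic receptor, was at -0.29. Transmitter synthesis and transport had 6 of 14 genes past the filter with a median of -0.11. Among these were NPY, the sympathetic neuropeptide, at 0.49 ± 0.50 with male values from 1735 to 7414 and female values from 878 to 8954, and SLC18A3, the vesicular acetylcholine transporter, at -0.35. CHAT, which makes acetylcholine, was near background.

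Granins and dense-core vesicle genes had 8 of 9 past the filter, with a median of 0.13. SCG2, secretogranin II, was at 0.46 ± 0.57 with probe sets of opposite sign, and CPE, a prohormone-processing enzyme, was at 0.32. SNARE and synaptic vesicle genes had 11 of 15 past the filter and a median of -0.08. SNAP23, the relative of SNAP25 used in most tissues, averaged 5784 in male and 5567 in female pools, and SNAP29 averaged 11830 in male and 11894 in female pools. The genes of this list near background were VAMP2, SYP, CPLX1 and SV2B. Past the filter, STX1A averaged 1206 in male and 1274 in female pools, and SYN2 averaged 706 in male and 789 in female pools. SYT11 averaged 6081 in male and 6686 in female pools. The synaptotagmins SYT2 and SYT4, past the filter at percentiles 45.1 and 41.6, had the highest ratios. SYT2 was at 0.55 ± 0.57 and SYT4, on Z, at 0.53 ± 0.32, neither called by limma.

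Axon growth and cytoskeleton genes had 13 of 16 past the filter and a median of -0.02. MAPT, the tau gene, averaged 805 ± 238 in male and 1303 ± 451 in female pools, a ratio of -0.64 ± 0.27 (limma adjusted p = 0.473), and MAP2, a dendritic microtubule protein, was at 0.45 ± 0.23. STMN1, the stathmin of dividing cells, averaged 137675 in male and 140566 in female pools. Of its relatives in this list, STMN3 was near background. STMN4 passed the filter at percentile 63.1, with 1251 in male and 1258 in female pools. Neural crest and Schwann cell genes had 11 of 20 past the filter and a median of -0.03. SOX8, a relative of SOX10, averaged 3280 ± 430 in male and 4184 ± 464 in female pools, a ratio of -0.35 ± 0.11 (limma adjusted p = 0.196), and MSX2 was at -0.24. PAX3, PAX7, NGFR, S100B, CDH6, CDH7 and TFAP2B were near background. SOX9 and CDH19 were too, and lay close to the limit at percentiles 38.7 and 39.3. Among the 11 past the filter, PMP22 averaged 8722 in male and 8619 in female pools. FABP7 averaged 3081 in male and 3184 in female pools, and SNAI2, ETS1, MITF and KIT also passed. EDNRB, the endothelin receptor of crest cells, which other cells of the heart also express, averaged 41774 in male and 40066 in female pools.

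The repressor REST, which silences many neuronal genes outside the nervous system, and its partners had 6 of 6 genes past the filter and a median of 0.15. REST itself averaged 14419 ± 1173 in male and 14261 ± 909 in female pools (SD, n = 5 each). RCOR3 and SIN3A had ratios of 0.25 ± 0.09 and 0.22 ± 0.28, neither called by limma, and another RCOR3 probe set was at 0.0080. The lists of other cells of the heart served as a check on the makeup of the pools. Of 17 cardiomyocyte genes past the filter, PLN, the inhibitor of the calcium pump, was called at -0.52 ± 0.11 (limma adjusted p = 0.0238), with 1464 in male and 2101 in female pools, and NKX2-5, a cardiac homeobox factor, was at -0.15. Of 19 genes of the other cell types 0 were called by limma and 2 had an unadjusted p under 0.05. These were the embryonic globin gene HBZ at -0.52 ± 0.16 and the epicardial factor TCF21 at -0.23 ± 0.09. Over all genes past the filter, limma called 2.23%, and 10.03% had an unadjusted p under 0.05. The largest ratio was that of TAL1, a factor of blood and endothelial progenitors, at 0.70 ± 0.44 with an unadjusted p of 0.130 in limma. Another TAL1 probe set past the filter had the opposite sign, at -0.19. In the guide list, the liver gene ALB was at 0.67 ± 0.47 and the lens gene CRYBB1 at -0.36 ± 0.24, neither called by limma.

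**Figure D5:**
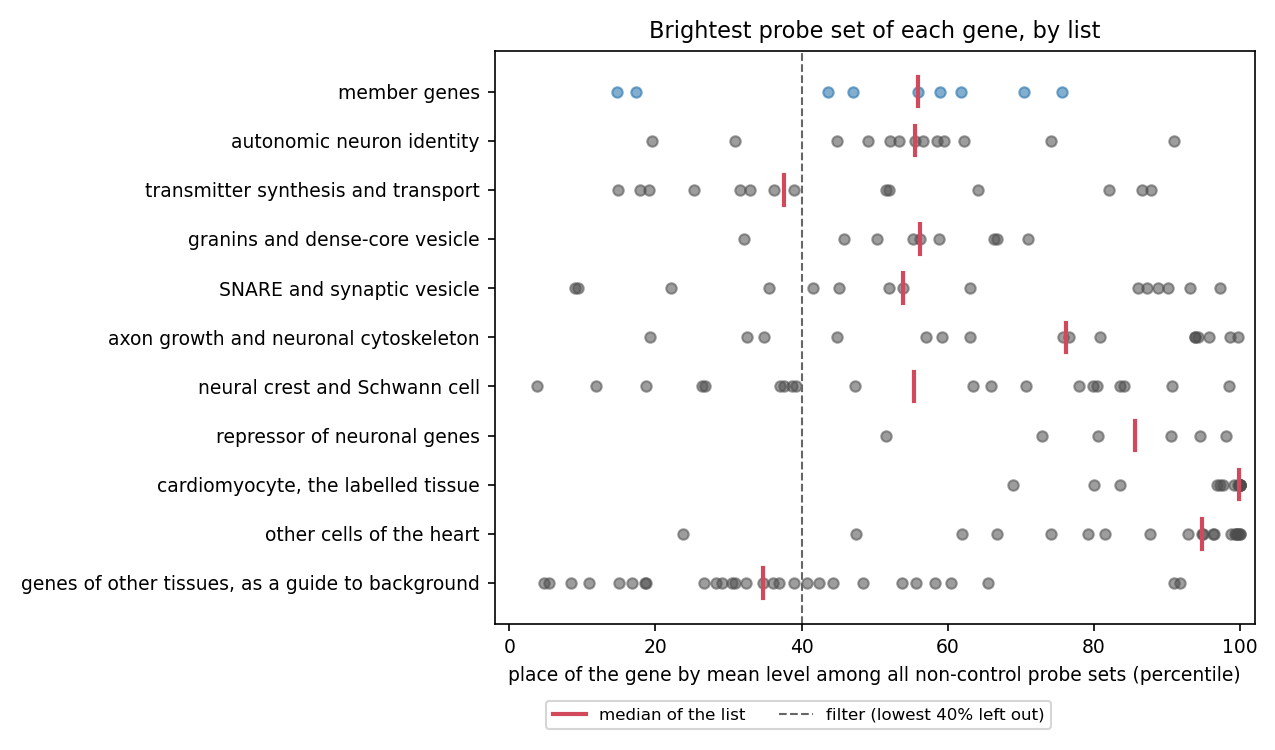
Percentile of the mean level of each gene's brightest probe set among all probe sets that are not controls, with 1 point per gene, a red bar at each list's median and the dashed line at the filter. The 9 member genes lie between 14.7 and 75.6, while the cardiomyocyte genes have a median of 99.8 and the genes of other tissues one of 34.7.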

How the data were processed

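The members and gene lists were chosen with earlier results of these data known. Per the labels, RNA pools of male and of female hearts were hybridised to 1 array each, 5 per sex. The deposited intensity values, 1 per probe set, have the same trimmed mean on every array, so the authors had scaled them; how is not stated. They were analysed as log2(intensity + 16). Control probe sets (96) and the lowest 40% by mean were left out, leaving 23064. Sexes were compared in limma 3.58.1 (R 4.3.3; lmFit, eBayes with trend) with Benjamini-Hochberg adjustment, tested on simulated data. Probe sets were named through the platform annotation, updated by gene ID to the RefSeq table of GRCg7b: 27178 had 1 symbol, 177 several and 11180 none. All members matched. Genes named from the lists are those called and the 2 with the largest ratio in each; others named for their role were chosen after their values were seen. Permutations of correlations numbered 100000. The letters were not used as pairs in the main fit. Same-letter residuals correlated at over 0.1 for A, D and E (0.18, 0.10 and 0.21) but not for B and C (0.06 and 0.00). A fit with the letter as a block is given below. No sequences of the members were used here. The number of arrays limits the precision.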

Additional observations from a re-analysis of the deposited data

Results flagged for a closer look

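In the 44 groups of 5 pools (22 probe sets, each sex), 2 held a value far from the other 4 on the log2 scale, about the share of 5% that chance gives. The dimmer DBH probe set read 36.0 in male pool A, where the other male pools read at most 15.4. The dimmest SNAP25 probe set read 118 in female pool E, where the other female pools read at most 27.7. Both are near background.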

How the results depend on the processing

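No member probe set was called under any setting, namely quantile normalization, pseudocounts of 1 and 64, no filter, a filter at 60% (which leaves 3 of the members' probe sets), no variance trend, a replicate block and each pool left out. The number of all probe sets called was 407, 405 with the letter as a replicate block, 351 without the variance trend and 336 to 398 with 1 pool left out. With the replicate block, no call of a member changed, and same-letter pools were each other's best match for A, D and E only. Within letters, the brightest CHGA probe set was lower in the male pool in 5 of 5 (SE 0.18 and limma adjusted p = 0.399 with the block). GAP43 was higher in the male pool in 5 of 5 (SE 0.52 and limma adjusted p = 0.517 with the block). How many of all probe sets went 1 way in 5 of 5 letters was not counted. These 5 of 5 are thus a description and not a result about CHGA or GAP43. Without the block the SE was larger, 0.26 for that CHGA probe set and 0.64 for GAP43. The counts of unadjusted p under 0.05 given above are from the fits without the block. They were not taken with the block and may differ there. As measured, the count of member pairs whose correlation passed was 0 under every scaling and pseudocount. It was 1 with each sex centred on the main scale, the pair FOXD3 and SNAP25, with adjustment within that test alone. Under other scalings and pseudocounts that centred pair was tested alone, without adjustment over the 21 pairs. With the limit at 60%, 19 of the 22 probe sets were near background.

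Uncalled ratios changed sign in 28 settings of 9 probe sets. After quantile normalization the dimmer DBH probe set was at 0.035 and STMN2 at 0.0046, and with a pseudocount of 64 the dimmest SNAP25 probe set was at -0.0010. With 1 pool left out, the ratios ran from -0.047 to 0.67 (dimmer SOX10), -0.16 to 0.041 (TH), -0.21 to 0.062 (dimmer DBH), -0.33 to 0.56 (dimmest CHGA), -0.036 to 0.23 (second SNAP25), -0.11 to 0.42 (dimmest SNAP25), -0.016 to 0.38 and -0.71 to 0.067 (the dimmer SYT1 probe sets) and -0.098 to 0.085 (STMN2). Signal near background limits the dim probe sets.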
